A study of Mus musculus with 20 samples.

Results

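The 34 genes described here encode the proteins that hold keratinocytes to each other: 15 of the desmosome and corneodesmosome, 8 of the adherens junction, 7 of the tight junction and 4 connexins of the gap junction. They were chosen by name, as genes of these 4 kinds of junction, and all 34 were found among the 25719 features of the count table. After genes with low counts were removed, 33 of the 34 remained among the 12424 genes tested. Cldn7, the remaining member, had at most 17 counts in a library and is given by its level only. RNA was sequenced in bulk from keratinocytes that had been isolated from the ear and back skin of mice and sorted by flow cytometry. Knockout mice (cKO) carried K14-CreERTam, a Cre recombinase that tamoxifen activates and that the keratin 14 promoter directs to basal keratinocytes, together with the floxed Cyp11b1 L2/L2 alleles, and control mice were littermates with Cyp11b1 L2/L2 and no Cre. Cyp11b1 encodes the last enzyme of corticosterone synthesis, and the design asked how a loss of skin glucocorticoid synthesis acts after local and after systemic induction. Every mouse, controls included, received tamoxifen on 5 days, and cells were taken on day 6. In the topical groups tamoxifen in ethanol was put on shaved back skin (100 µl) and on the ear (20 µl). In the systemic groups 100 µl at 10 mg/ml was injected into the peritoneum in an oil and ethanol solution. The solvent, shaving and route thus differ together between topical and systemic mice. The 4 groups of topical control, topical cKO, systemic control and systemic cKO had 5 mice each, and the labels give neither age nor strain.

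Desmosomes join the keratin filaments of neighbouring cells: desmogleins and desmocollins bind each other outside the cell, and plakoglobin, plakophilins, desmoplakin and the envelope proteins periplakin and envoplakin form the plaque inside. Basal and upper epidermal layers use different members of these families, and corneodesmosin is added to the desmosomes of the outermost living cells. Adherens junctions join actin through cadherins, nectins and catenins, claudins and occludin seal the space between cells of the granular layer as tight junctions, and connexins form channels between cells.

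Library totals ran from 11.6 to 50.1 M counts, and each group had 2 or 3 males by Y-linked genes. Cyp11b1 had at most 6 counts in any library, controls included, so its counts do not check the genotype labels. Levels of the junction genes below are in CPM, counts scaled to library size with TMM factors. Sums of satellite-like, marker and dissociation response genes, here and below, are in CPM scaled to library size without TMM factors. These factors ran from 0.78 to 1.52, so the sums and the junction gene levels are not on the same scale. Transcripts of 12 predicted satellite-like genes summed to 0.839 to 42.5 CPM in 14 libraries and to 79.4 to 37287 CPM in the other 6. These 6 were the 5 systemic controls and systemic cKO 2. In systemic mice this split and the genotype therefore nearly coincide and cannot be told apart. Keratinocyte markers summed to 69813 to 104352 CPM. Markers of fibroblasts reached 32.0 CPM, of epidermal immune cells 33.7, of melanocytes 35, of endothelium 8.11 and of skeletal muscle 6.72 CPM in the highest library, and no marker was at 0 in all libraries. The sorted cells also held hair follicle markers (817 to 3501 CPM) and sebaceous gland markers (240.4 to 3604 CPM). Epidermal immune markers summed to 7.27 to 12.7 CPM in topical cKO and 16.7 to 33.7 CPM in systemic cKO, without overlap. All 5 sebaceous, 5 endothelial and 4 fibroblast markers tested were lower in systemic than in topical cKO, with 0 called. The part of these cells in the junction gene results was not tested. Genes of the dissociation response summed to 19622 to 26151 CPM in topical and 30512 to 44093 CPM in systemic libraries, without overlap. In bulk RNA a smaller share of cells of one type and less RNA per cell cannot be told apart.

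Per kb of merged exon length, the desmosomal genes led the list. Jup, which encodes plakoglobin, had the highest level with a mean of 527 CPM per kb over all 20 libraries, followed by the desmocollin gene Dsc3 (356), the plakophilin gene Pkp3 (289) and the desmoglein gene Dsg1a (217 CPM per kb). The E-cadherin gene Cdh1 (156) and Pkp1 (155) came next, then the claudin gene Cldn4 (143) and the desmoplakin gene Dsp (104 CPM per kb). At the other end stood Tjp1, which encodes the plaque protein ZO-1 (0.709), Gjb6 for connexin 30 (0.667), Cldn7 (0.158) and Pkp2 (0.133 CPM per kb). Most neighbours in this order differed by less than 1 SD over the libraries. The steps larger than 1 SD of the higher gene lay between Evpl and Dsg3, between Ocln and Cgn, and between Gjb6 and Cldn7. The spread of Cldn4, 143 ± 123 CPM per kb (SD, n = 20), was nearly as large as its mean.

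**Figure D1:**
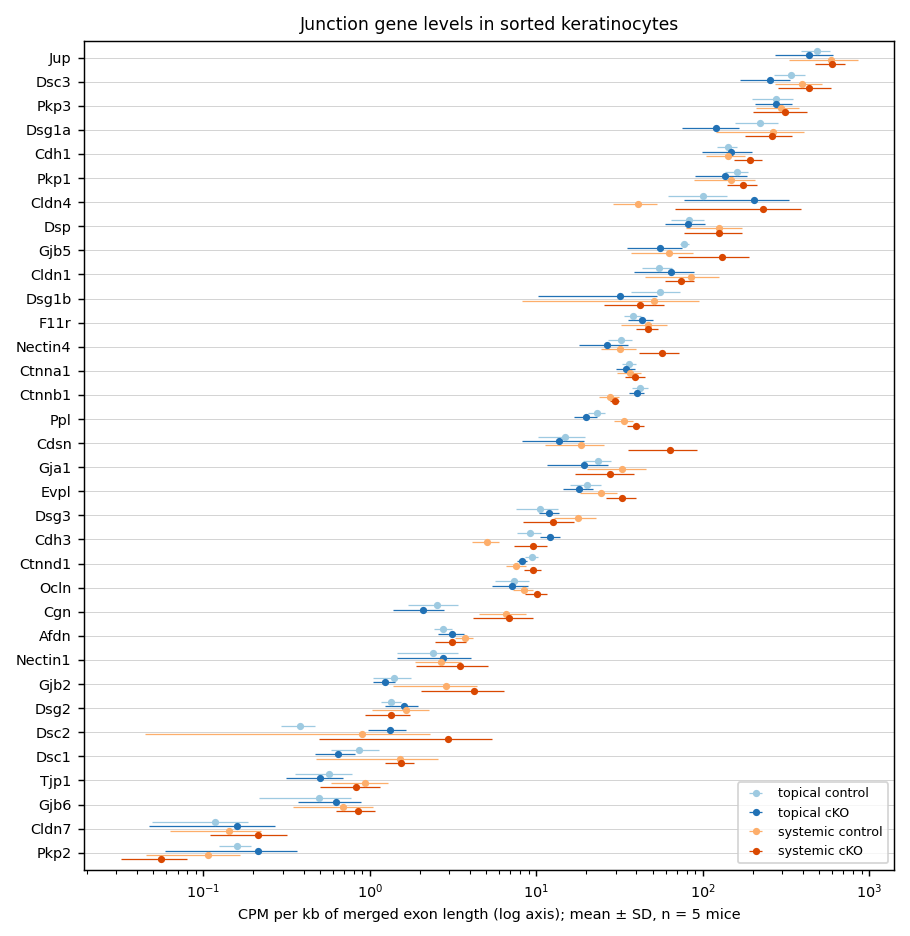
Level of each of the 34 junction genes in CPM per kb of merged exon length (log axis), as mean ± SD of 5 mice per group, with the lower error bar shortened where it would reach 0. Jup is highest and Pkp2 and Cldn7 are the lowest 2 genes in each of the 4 groups, and Cldn4 is lowest in systemic controls.

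The 5 comparisons of the design are given with the share of all tested genes called in each. "Called" means here that edgeR's quasi-likelihood test, with Benjamini-Hochberg adjustment over all 12424 genes, gave an adjusted p below 0.05. After topical tamoxifen 0 of 33 members were called between cKO and control, where 0.129% of all genes were called. 4 members had an unadjusted p under 0.05 (5.66% of all genes), the median log2 difference of the members was -0.07, and DESeq2's Wald test and limma voom also called 0. After systemic tamoxifen 3 of 33 (9.09%) were called and all 3 were higher in cKO, against 1.89% of all genes called, 1.36% higher and 0.531% lower. 9 members had an unadjusted p under 0.05 (15.3% of all genes), and 23 members lay above 0 and 10 below, with a median of 0.11. The test of the difference between these genotype effects called 0 of 33 members (0.25% of all genes, 0.185% higher and 0.0644% lower). The Wald test of DESeq2 called 3 members (Cdsn, Gjb5 and Ctnnd1) and 2.54% of all genes there, and limma voom 1 member and 1.75% of all genes. 8 members had an unadjusted p under 0.05 in that test, against 14.0% of all genes.

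Between routes, 6 of 33 members (18.2%) were called in controls, 4 higher and 2 lower in systemic mice. This share was close to the 18.3% of all genes called there (10.2% higher and 8.16% lower). 13 members had an unadjusted p under 0.05, against 32.9% of all genes. In cKO mice 11 of 33 (33.3%) were called, 9 higher and 2 lower in systemic mice, where 9.22% of all genes were called, 5.19% higher and 4.02% lower. 16 members had an unadjusted p under 0.05, against 23.1% of all genes. 28 members lay above 0 and 5 below, with a median log2 difference of 0.44. The median over all genes lay between -0.03 and 0.02 in the 5 comparisons. The route comparison in controls and that in cKO mice have no library in common. Cgn, Ctnnb1, Gjb2 and Ppl were called in both, each in the same direction. The share of all genes called in both was not counted.

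The satellite-like sum was over 50 CPM in all 5 systemic controls and in none of the 5 topical controls, so that in controls it cannot be told apart from route. In cKO mice it was over 50 CPM in 1 of 5 systemic libraries and in 0 of 5 topical ones. With its log2 as a covariate 0 of 33 members were called between routes in controls (0.95% of all genes), and 11 of 33 in cKO mice (10.5%). With a covariate for libraries over 50 CPM, chosen after the data were seen, 0 were called in controls (0.00805%) and 10 in cKO (8.49%). The log2 covariate gave differences in controls of 1.03 for Cgn, 1.23 for Gjb2 and -0.50 for Ctnnb1, against 1.38, 1.03 and -0.61 without it. Dsg3 differed by 0.69 in that fit. The covariate for 50 CPM gave 0.83 for both Gjb2 and Ppl. For Cdh3 it gave -0.19, against -0.86 without it. When only the 10 libraries of a comparison entered the fit, 8 members were called in controls (20.7%) and 7 in cKO (6.7%).

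**Figure D2:**
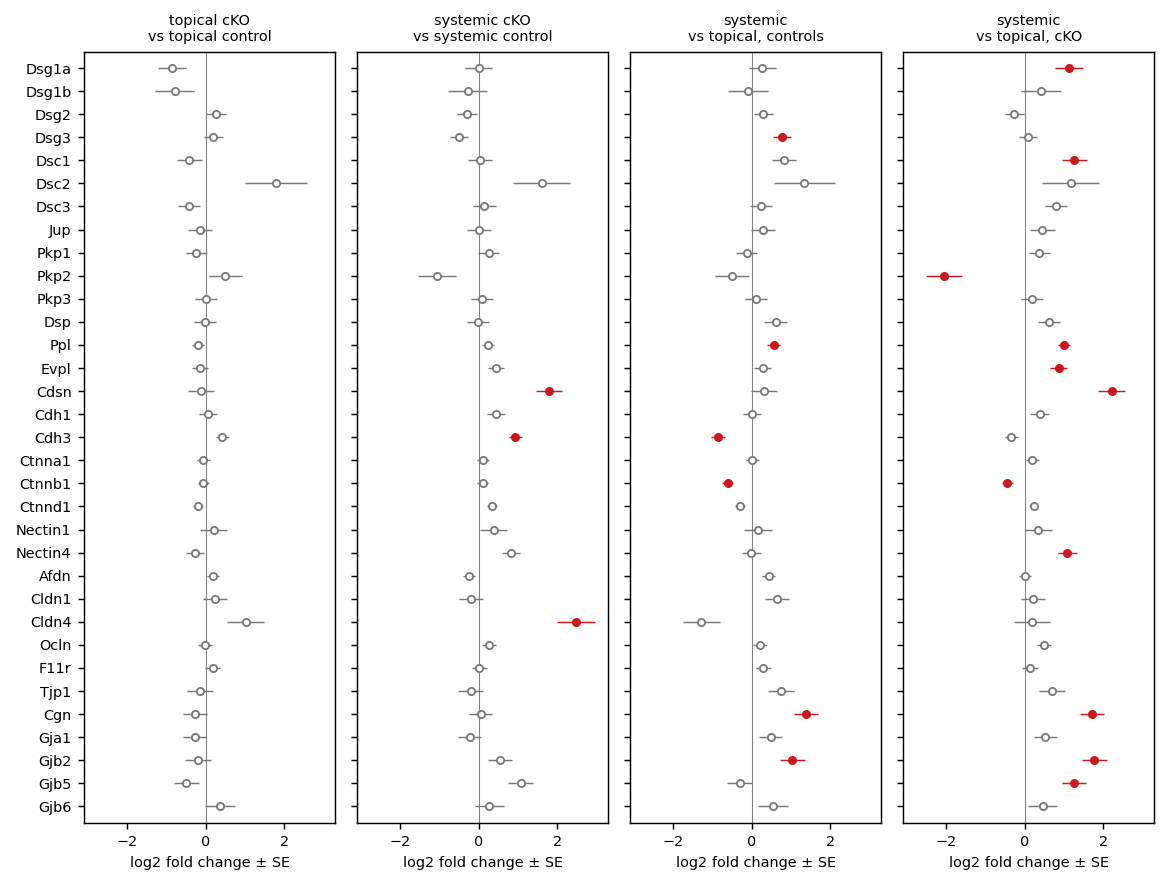
Log2 fold change ± SE of the 33 tested junction genes in 4 comparisons, by role from desmosomal cadherins at the top to connexins at the bottom, with called genes (edgeR adjusted p under 0.05) in filled red and others in open grey. No gene is red in the topical genotype comparison, Cldn4, Cdsn and Cdh3 are red in the systemic one, and 11 genes are red between routes in cKO mice.

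Values of a group are given below in CPM in the order of the mouse numbers, which are 1, 3, 5, 6 and 7 for topical controls, 2, 3, 4, 5 and 7 for topical cKO, 1, 3, 4, 5 and 6 for systemic controls and 2, 4, 5, 6 and 7 for systemic cKO.

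Among the desmosomal cadherins, Dsg1a and Dsg1b encode desmoglein 1, the desmoglein of the upper layers. Dsg1a (ENSMUSG00000069441, chromosome 18) had 1489, 883, 1757, 1045 and 1072 CPM in topical controls and 738, 627, 856, 271 and 936 CPM in topical cKO. In systemic mice it was measured at 2932, 1246, 1316, 1148 and 861 CPM in systemic controls and 829, 2118, 1373, 1702 and 1441 CPM in systemic cKO. Topical cKO 5 was the lowest of all 20 libraries and systemic control 1 the highest. Between routes in cKO mice Dsg1a rose by 1.12 on the log2 scale in the systemic group (SE 0.35, edgeR adjusted p = 0.046). The call was lost in 8 of 10 fits that left out 1 library, with the highest adjusted p (0.113) without topical cKO 5. The topical genotype difference of -0.87 was not called (edgeR adjusted p = 0.799). Of the 50-base stretches of Dsg1a, 35% also occurred in other genes, mainly Dsg1b and Dsg1c, and of Dsg1b 48.9%, so reads may have been split between the copies and both levels are uncertain. The extremes of Dsg1b were again topical cKO 5, at 20.4 CPM, and systemic control 1, at 502 CPM, and it was called in no comparison.

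Dsg3, the desmoglein of the lower layers, had 73.9, 71.3, 107, 52.0 and 62.5 CPM in topical controls and 87.2, 141, 172, 132 and 91.4 CPM in systemic controls. The ranges overlapped through topical control 5. Dsg3 was higher in systemic controls by 0.77 (SE 0.23, edgeR adjusted p = 0.0254), a call lost in 5 of 10 fits without 1 library (adjusted p up to 0.0813, without systemic control 4). In the cKO groups its medians were 88.8 CPM after topical and 87.0 CPM after systemic treatment. The ratio of Dsg3 to the sum of Dsg1a and Dsg1b, in CPM and not corrected for length, was 5.10 ± 1.06 per 100 in topical controls and 12.9 ± 7.89 in topical cKO (SD, n = 5). In systemic mice it was 8.87 ± 3.63 in controls and 5.91 ± 2.88 in cKO (SD, n = 5). The ratio is a description without a test, and topical cKO 5 had the highest value, 26.2. Dsg2, a desmoglein that simple epithelia also use, stayed between 5.74 and 19.5 CPM and was called in no comparison.

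Of the desmocollin genes, Dsc1, whose protein marks upper layers, had 3.72, 4.38, 3.08, 2.07 and 2.96 CPM in topical cKO and 6.07, 6.35, 8.29, 9.80 and 8.19 CPM in systemic cKO. The groups did not overlap, which held for 7 of 33 members (7.4% of all genes). Dsc1 rose in systemic cKO by 1.26 (SE 0.32, edgeR adjusted p = 0.0144), and the adjusted p was 0.0519 without topical cKO 5. Dsc3, the main desmocollin gene by level, had medians of 1702, 1595, 2293 and 2199 CPM in topical controls, topical cKO, systemic controls and systemic cKO, and was not called.

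Dsc2, the most broadly expressed desmocollin gene, was the only member whose topical groups did not overlap (1.4% of all genes). It had 1.46, 1.68, 2.59, 2.36 and 2.00 CPM in topical controls and 5.95, 7.32, 6.92, 4.82 and 9.67 CPM in topical cKO. In systemic controls it had 1.21, 1.94, 0.987, 1.57 and 17.9 CPM, and in systemic cKO 14.0, 2.61, 3.62, 31.0 and 26.6 CPM. All 5 topical cKO libraries thus lay above all 5 topical controls, whereas systemic control 6 lay within the systemic cKO range. The topical log2 difference was 1.78 (SE 0.79) and was not called, with an edgeR adjusted p of 0.825. In a fit of the 10 topical libraries alone the difference was again 1.78, with an SE of 0.23 and an edgeR adjusted p of 0.00264, and 0.194% of all genes were called there. The fit of all groups shares 1 estimate of spread with the systemic groups, where Dsc2 varied more. The systemic difference was 1.60 (SE 0.73, edgeR adjusted p = 0.297).

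The plaque genes Jup, Pkp1, Pkp3 and Dsp had high levels and were called in no comparison. Jup ranged from 1410 to 6288 CPM, Pkp3 from 633 to 1701, Pkp1 from 352 to 1241 and Dsp from 612 to 1983 CPM. Their genotype differences lay between -0.24 and 0.25 on the log2 scale in both routes. For Dsp 4.66% of the 50-base stretches occurred in a gene on the opposite strand, and the strand setting of the counting is not given in the sources used here.

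Ppl and Evpl encode periplakin and envoplakin, which link desmosomes and keratin to the cornified envelope of upper keratinocytes. Ppl (ENSMUSG00000039457, chr16:5086291-5132421) had 192, 145, 153, 154 and 153 CPM in topical controls and 256, 264, 193, 243 and 211 CPM in systemic controls. In topical cKO it had 146, 140.5, 159.9, 102.0 and 142 CPM, and in systemic cKO 236, 273, 263, 325 and 279 CPM. Every systemic library lay above every topical library of the same genotype. Ppl rose in systemic mice by 0.55 in controls (SE 0.16, edgeR adjusted p = 0.0186) and 1.99-fold in cKO (SE 0.16 on the log2 scale, edgeR adjusted p = 3.31e-04). The call in controls was lost in 2 of 10 fits without 1 library, the highest adjusted p being 0.0533 without systemic control 3, and the call in cKO in none.

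Evpl (ENSMUSG00000034282, chr11:116220559-116238077) had 119, 119.5, 134, 76.0 and 131 CPM in topical cKO and 138, 213, 229.7, 246 and 224 CPM in systemic cKO, without overlap. It rose by 0.86 (SE 0.21, edgeR adjusted p = 0.0119) and kept its call in all 10 fits without 1 library. In controls Evpl differed by 0.27 and was not called. Pkp2, a plakophilin of simple epithelia and heart, was near the lower end of detection. It had 1.02, 0.979, 0.615, 2.55 and 0.523 CPM in topical cKO and 0.440, 0.220, 0.211, 0.190 and 0.437 CPM in systemic cKO. The fall in systemic cKO of -2.06 (SE 0.47, edgeR adjusted p = 0.00656) was -1.49 without topical cKO 5, the library with 2.55 CPM. Krt7, a keratin of simple and glandular epithelium, differed by -3.80 in the same comparison (edgeR adjusted p = 0.00151). It was the only 1 called of 3 tested markers of simple or sweat gland epithelium, whose median was -0.68 and highest 0.04. Their sums overlapped, with 145 to 249 CPM in topical cKO and 87.0 to 224 CPM in systemic cKO. The part of such cells in the Pkp2 result was not tested.

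Cdsn encodes corneodesmosin, a secreted protein of the outermost desmosomes whose breakdown precedes shedding. Cdsn (ENSMUSG00000039518, chr17:35552128-35557180) had 79.1, 33.7, 34, 57.5 and 43.3 CPM in systemic controls and 74.0, 111, 222, 251 and 197 CPM in systemic cKO. Only systemic cKO 2, at 74.0 CPM, lay within the range of the controls. Cdsn rose in systemic cKO by 1.79 (SE 0.34, edgeR adjusted p = 0.00728), a 3.45-fold difference. In topical mice it had 29.3, 25.0, 42.0, 49.2 and 54.5 CPM in controls and 33.1, 58.6, 44.4, 23.1 and 24.9 CPM in cKO. These ranges overlapped, and the difference was -0.12 (SE 0.33, edgeR adjusted p = 0.997). The difference between the genotype effects was 1.91 (SE 0.47) with an edgeR adjusted p of 0.0682, which was not called. Without systemic cKO 2 it was 2.10 and was called. Between routes Cdsn rose in systemic cKO by 2.22 (SE 0.34, edgeR adjusted p = 2.86e-04), without overlap and in all 10 fits without 1 library, and was not called in controls (0.31).

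At the adherens junction the cadherin genes were Cdh1, for E-cadherin of all layers, and Cdh3, for P-cadherin of basal and hair follicle cells. Cdh3 (ENSMUSG00000061048, chr8:106510891-106557297) had 18.4, 28.1, 23.1, 22.1 and 18.4 CPM in systemic controls and 28.3, 47.9, 44.9, 51.2 and 36.1 CPM in systemic cKO. It had 36.6, 48.0, 37.0, 32.5 and 46.3 CPM in topical controls and 59.5, 44.8, 58.3, 57.8 and 46.2 CPM in topical cKO. The systemic controls were the low group, and their highest library, at 28.1 CPM, lay just below systemic cKO 2 at 28.3 CPM. Cdh3 rose in systemic cKO by 0.92 (SE 0.17, edgeR adjusted p = 0.00492), and Cldn4 and Cdh3 were the 2 of 33 members whose systemic genotype groups did not overlap (1.93% of all genes). In controls it fell from topical to systemic by 0.86 (SE 0.17, edgeR adjusted p = 0.00149). This was 1 of 5 members without overlap in that comparison, against 13.8% of all genes. The topical genotype difference was 0.41 (SE 0.17, unadjusted p = 0.021, edgeR adjusted p = 0.799), and the difference between the genotype effects was 0.51 (edgeR adjusted p = 0.327).

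Of 7 hair follicle markers none was called in the systemic genotype comparison, and all 7 had a log2 difference below 0. Their sum had a median of 1452 CPM in systemic controls and 1621 CPM in systemic cKO. The part of hair follicle cells in the Cdh3 result was not tested. Cdh1 had medians of 704, 553, 720.0 and 768 CPM in topical controls, topical cKO, systemic controls and systemic cKO and was called in no comparison. Cdh3 stood at 6.19 ± 0.57 per 100 of Cdh1 in topical controls and 3.60 ± 1.20 in systemic controls (SD, n = 5), in CPM not corrected for length. The same ratio was 8.35 ± 2.09 in topical cKO and 4.78 ± 0.80 in systemic cKO (SD, n = 5). The ratio fell within a narrower range in topical controls, 5.25 to 6.79, than in topical cKO, 5.57 to 11.5.

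Among the catenins, which tie cadherins to actin, Ctnnb1 for beta-catenin was lower after systemic treatment. It had 217, 214, 256, 188 and 222 CPM in topical controls and 173, 133, 135, 152 and 123 CPM in systemic controls, without overlap. In cKO mice it had 209, 179, 207, 215 and 237 CPM after topical and 149.8, 167, 144, 158 and 148 CPM after systemic treatment, again without overlap. Ctnnb1 fell by 0.61 in controls (SE 0.14, edgeR adjusted p = 0.0048) and by 0.45 in cKO (SE 0.14, edgeR adjusted p = 0.0473). The call in cKO was lost in 8 of 10 fits without 1 library, with an adjusted p of up to 0.114 (without topical cKO 7), while the log2 difference stayed between -0.50 and -0.40. For Ctnnb1 12.3% of the 50-base stretches lie opposite to Ulk4, whose reads could not be told apart without strand. Ctnna1, for alpha-catenin, had group medians of 222 to 252 CPM and was called nowhere. Ctnnd1, for p120 catenin, was called nowhere, and 56.7% of its 50-base stretches occur in the overlapping gene Gm28635, so its level of 46.2 to 82.5 CPM is uncertain.

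The nectins bind across the cell border and join actin through afadin (Afdn). Nectin4 (ENSMUSG00000006411, chr1:171370099-171388598) had 171, 102, 104, 118 and 106 CPM in systemic controls and 122, 262, 257, 215 and 205 CPM in systemic cKO. In topical mice it had 115, 115, 94.0, 142 and 141 CPM in controls and 89.1, 104, 114, 52.9 and 141 CPM in cKO. In systemic cKO 4 of 5 libraries lay above every other library of the 4 groups, and systemic cKO 2 did not. The systemic genotype difference was 0.82 (SE 0.24) with an edgeR adjusted p of 0.0772, and without systemic cKO 2 it was 0.97 and was called. Between routes Nectin4 rose in systemic cKO by 1.08 (SE 0.24, edgeR adjusted p = 0.00553). Nectin1, at 6.21 to 28.3 CPM, and Afdn, at 21.6 to 44.0 CPM, were called in no comparison.

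At the tight junction Cldn4, which encodes a claudin of the upper epidermis and of many glandular epithelia, showed the largest genotype difference of the members tested. Cldn4 (ENSMUSG00000047501, chr5:134945119-134946934, a gene of 1 exon) had 69.2, 71.7, 101, 88.0 and 42.9 CPM in systemic controls and 180.2, 145, 297, 770.0 and 687 CPM in systemic cKO. All 5 systemic cKO libraries, systemic cKO 2 included, lay above all 5 systemic controls. Cldn4 rose by 2.48 (SE 0.48, edgeR adjusted p = 0.00949), a 5.57-fold difference. In topical mice it had 99.0, 236, 116, 215 and 248 CPM in controls and 193, 543, 664, 314 and 128 CPM in cKO, with overlap. The topical difference was 1.01 (SE 0.46, unadjusted p = 0.0398, edgeR adjusted p = 0.842), and the difference between the genotype effects was 1.47 (SE 0.65, edgeR adjusted p = 0.312). Systemic controls were the lowest group, with a route difference in controls of -1.29 (edgeR adjusted p = 0.0571), while the cKO groups differed by 0.17. Markers of simple or sweat gland epithelium, which also express claudin 4, summed to 118 to 244 CPM in systemic controls and 87.0 to 224 CPM in systemic cKO, and none of the 3 tested was called there. In topical mice they summed to 84.4 to 163 CPM in controls and 145 to 249 CPM in cKO. All 3 lay above 0 in the topical genotype comparison (median 0.42), and none was called. The part of such cells in the Cldn4 results was not tested.

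Cldn4, Cdsn and Cdh3 kept their calls in each of the 10 fits that left out 1 systemic library, with edgeR adjusted p up to 0.0396, 0.0303 and 0.0236. With the log2 of the satellite-like sum as a covariate the differences were 1.92, 1.05 and 0.69, none of the 3 was called (adjusted p 0.648 to 0.660), and no gene of the table was. With the covariate for libraries over 50 CPM they were 1.27, 0.58 and 0.36 (edgeR adjusted p = 0.99997 for each). In a fit of the 10 systemic libraries alone Cldn4 was the 1 member called (edgeR adjusted p = 0.0493), against 0.294% of all genes.

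The other tight junction membrane genes were not called in any comparison. Cldn1, for the main barrier claudin of epidermis, ranged from 157 to 645 CPM, Ocln for occludin from 17.9 to 50.5 CPM, and F11r for the adhesion molecule JAM-A from 76.2 to 167 CPM. Cldn7 had 0 to 0.625 CPM and was not tested at this depth. Tjp1 stayed between 2.15 and 11.2 CPM and was called nowhere.

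Cgn, for the plaque protein cingulin, was called between routes in both genotypes and in neither genotype comparison. Cgn (ENSMUSG00000068876, chr3:94760069-94786492) had 13.9, 9.62, 19.6, 21.6 and 12.1 CPM in topical controls and 32.3, 54.1, 26.7, 33.9 and 51.6 CPM in systemic controls, without overlap. In cKO mice it had 8.69, 19.6, 12.6, 12.1 and 9.84 CPM after topical and 45.5, 16.6, 34.2, 56.9 and 52.2 CPM after systemic treatment. Systemic cKO 4, at 16.6 CPM, was the library that made these groups overlap. Cgn rose in systemic mice by 1.38 in controls (SE 0.30, edgeR adjusted p = 0.00346) and by 1.71 in cKO (SE 0.30, edgeR adjusted p = 9.65e-04), and kept both calls in all fits without 1 library. With either satellite covariate the call in controls was lost, with a difference of 1.03 for the log2 sum, and the call in cKO was kept. Its genotype differences were -0.28 in topical mice (edgeR adjusted p = 0.997) and 0.04 in systemic mice (edgeR adjusted p = 0.967). Of its 50-base stretches 17.2% occur in other genes, mainly BC021767.

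Among the connexins Gjb2, for connexin 26, was called between routes in both genotypes, and Gjb5, for connexin 31.1, in cKO mice alone. Gjb2 (ENSMUSG00000046352, chr14:57098600-57104702) had 2.77, 2.58, 4.71, 3.07 and 3.81 CPM in topical controls and 13.3, 5.33, 4.74, 5.15 and 6.14 CPM in systemic controls. It had 2.58, 2.59, 3.15, 2.83 and 3.66 CPM in topical cKO and 11.3, 6.18, 6.15, 18.7 and 8.37 CPM in systemic cKO. Both pairs were without overlap, in controls by a margin of only 4.71 against 4.74 CPM. Gjb2 rose in systemic mice by 1.03 in controls (SE 0.31, edgeR adjusted p = 0.0252) and by 1.77 in cKO (SE 0.32, edgeR adjusted p = 9.65e-04). The call in controls was lost in 3 of 10 fits without 1 library. Without systemic control 1 the difference was 0.66 (edgeR adjusted p = 0.0906), without topical control 1 it was 0.97 (0.0604) and without topical control 3 it was 0.95 (0.0632).

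Gjb5 (ENSMUSG00000042357, chr4:127354809-127358181) had 88.3, 80.6, 127, 47.9 and 130.1 CPM in topical cKO and 96.5, 338, 320.4, 203 and 165 CPM in systemic cKO. It had 132, 121, 139, 137 and 139.8 CPM in topical controls and 176, 68.4, 80.3, 124 and 88.5 CPM in systemic controls. In systemic cKO 4 of 5 libraries lay above all topical libraries, and systemic cKO 2 lay within their range. Between routes in cKO Gjb5 rose by 1.25 (SE 0.32, edgeR adjusted p = 0.014), and with the 10 cKO libraries alone the adjusted p was 0.0526. In controls it differed by -0.32 and was not called (SE 0.31, edgeR adjusted p = 0.512). The systemic genotype difference was 1.07 (SE 0.31, edgeR adjusted p = 0.0816), and without systemic cKO 2 it was 1.26 and was called. The difference between the genotype effects, 1.56 (SE 0.44, edgeR adjusted p = 0.11), was 1.76 without systemic cKO 2 and then called. Gja1, for connexin 43 and the connexin gene with the highest CPM, had group medians of 237, 196, 335 and 273 CPM and was called nowhere. Gjb6 stayed between 0.683 and 3.10 CPM and was called nowhere.

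**Figure D3:**
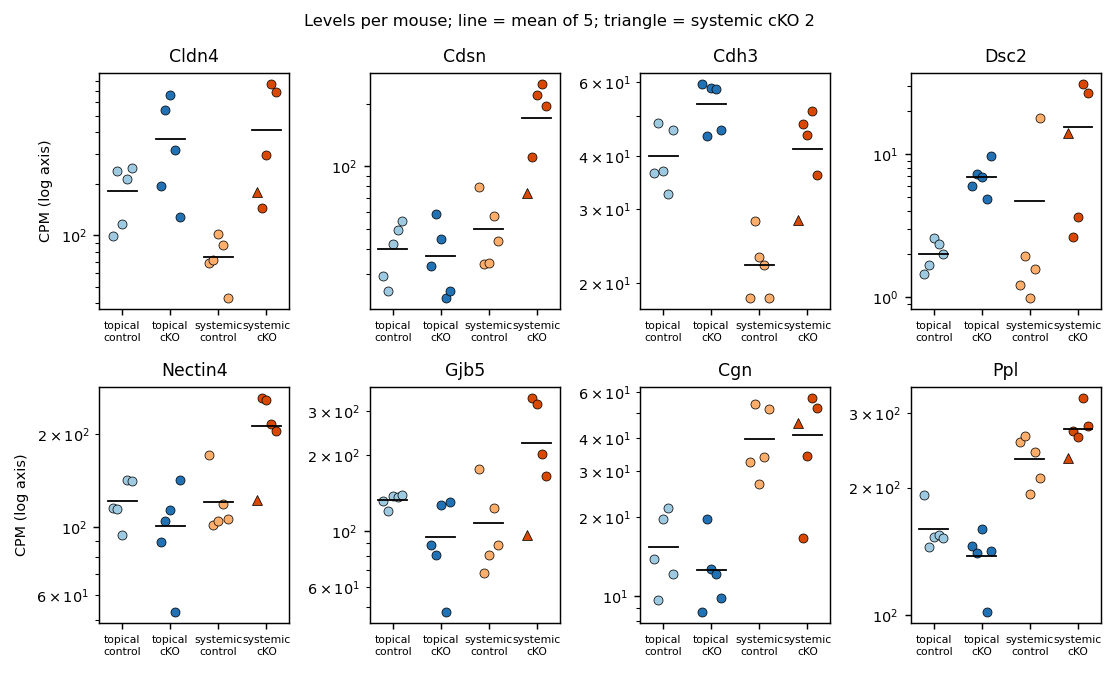
CPM (log axis) of 8 junction genes in each mouse by group, with the group mean as a line and systemic cKO 2 as a triangle. Cldn4, Cdsn and Cdh3 are high in systemic cKO against systemic controls, Dsc2 is split between the topical groups, and Ppl and Cgn are high in both systemic groups.

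Promoter sequence is shown for the 2 genotype-called members with an entry in the RefSeq table for GRCm38.p6 (Cdsn and Cldn4) and for the 2 members with the next largest rise between routes in cKO mice (Gjb2 and Cgn), so that the shared and unshared motifs can be read. Of the 34 members 18 had an entry, and Cdh3, Ppl and Evpl had none. Each line gives the 250 bases before the RefSeq start site, 5′ to 3′ on the strand of the gene, with matches in capitals. The positions in GRCm38 are chr17:35551878-35552127 on the plus strand for Cdsn, chr5:134946935-134947184 on the minus strand for Cldn4, chr14:57104703-57104952 on the minus strand for Gjb2 and chr3:94786483-94786732 on the minus strand for Cgn.
Cdsn: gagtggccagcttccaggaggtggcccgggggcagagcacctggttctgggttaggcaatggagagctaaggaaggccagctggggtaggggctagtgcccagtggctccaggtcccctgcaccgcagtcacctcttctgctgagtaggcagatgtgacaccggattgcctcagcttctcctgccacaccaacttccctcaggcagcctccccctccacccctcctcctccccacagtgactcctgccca
Cldn4: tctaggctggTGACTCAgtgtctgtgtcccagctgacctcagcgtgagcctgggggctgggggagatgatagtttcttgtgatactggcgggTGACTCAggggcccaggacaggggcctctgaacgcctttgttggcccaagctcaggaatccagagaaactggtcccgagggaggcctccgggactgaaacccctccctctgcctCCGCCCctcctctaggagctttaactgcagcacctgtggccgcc
Gjb2: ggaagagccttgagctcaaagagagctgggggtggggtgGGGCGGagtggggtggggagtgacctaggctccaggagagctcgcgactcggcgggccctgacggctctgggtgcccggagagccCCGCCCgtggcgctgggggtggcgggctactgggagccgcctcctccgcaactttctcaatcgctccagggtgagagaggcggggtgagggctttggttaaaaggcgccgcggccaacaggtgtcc
Cgn: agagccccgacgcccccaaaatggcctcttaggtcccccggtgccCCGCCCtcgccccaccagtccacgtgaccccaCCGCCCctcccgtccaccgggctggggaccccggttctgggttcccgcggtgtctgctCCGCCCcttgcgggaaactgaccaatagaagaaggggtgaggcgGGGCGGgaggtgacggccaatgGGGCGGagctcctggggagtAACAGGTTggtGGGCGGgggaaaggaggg
The motifs searched on both strands were the TATA box TATAAA, the GC box GGGCGG, the AP-1 motif TGANTCA, the grainyhead motif AACCNGTT and the palindrome of glucocorticoid response elements. They do not overlap each other in these 4 windows. Cldn4 held the AP-1 motif at 240 and 158 bases before the start and 1 GC box, Cgn held 6 GC boxes and 1 grainyhead motif, Gjb2 held 2 GC boxes, and Cdsn held no match. Among 32851 RefSeq windows of the same length 12.4% held the TATA box, 32.7% the GC box, 6.75% the AP-1, 1.79% the grainyhead and 0.387% the glucocorticoid motif. Of the 18 members with an entry, 2, 11, 3, 2 and 0 held them in that order. The 3 with an AP-1 motif were Cldn4, F11r and Gja1, of which Cldn4 alone was called in any comparison. A match of letters is a description, and no match says only that the letters are not in this window.

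**Figure D4:**
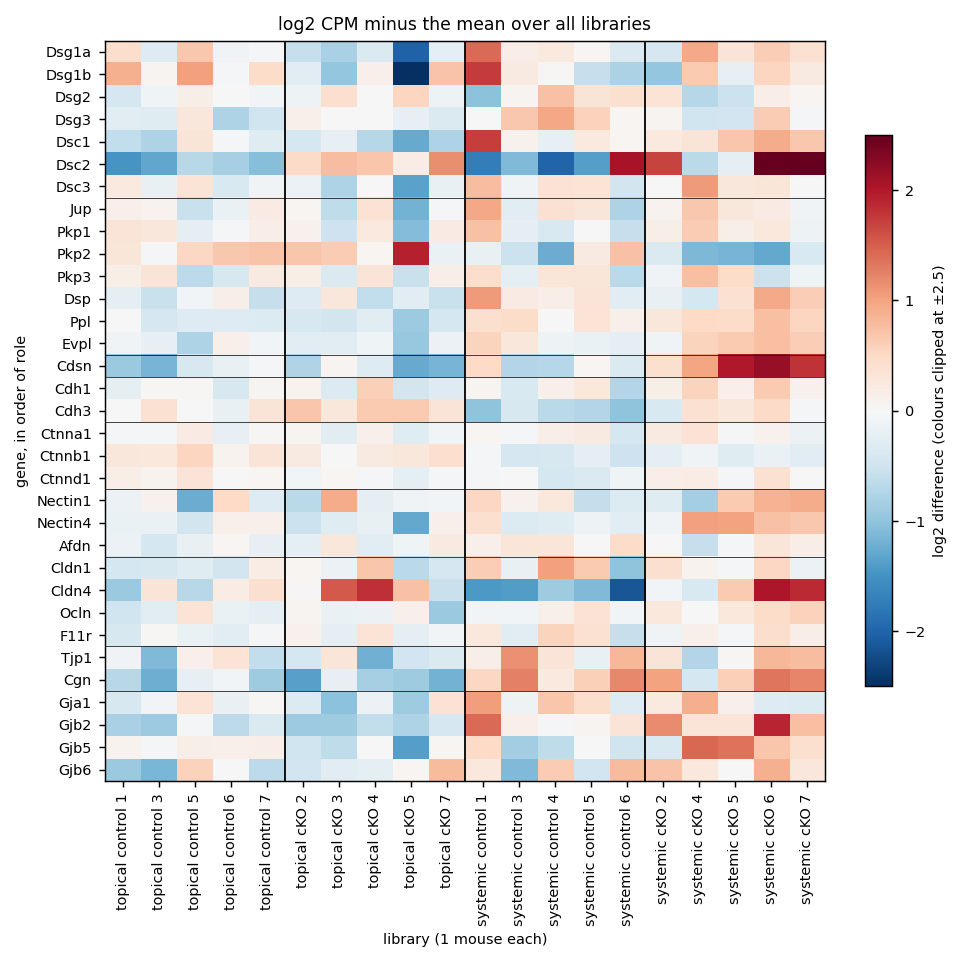
Log2 CPM of the 33 tested junction genes in each library minus its mean over the 20 libraries, with genes in order of role and libraries by group. Topical cKO 5 holds the lowest value of all libraries in 11 genes, systemic cKO 6 the highest in 10 and systemic control 1 in 7, and systemic cKO 2 differs from the other systemic cKO libraries for Cdsn, Nectin4 and Gjb5.

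Single libraries held many of the extremes. Topical cKO 5 had the lowest value of all 20 libraries in 11 of the 33 tested members and of its group in 18. Systemic cKO 6 had the highest value of all libraries in 10 members, systemic control 1 in 7, and systemic control 6 had the lowest of its group in 16. Of members at 10 CPM or more in a group, the median coefficient of variation between mice was 19.7% in topical controls, 32.5% in topical cKO, 30.5% in systemic controls and 30.5% in systemic cKO. Over all genes at 10 CPM or more it was 15.7%, 17.1%, 18.4% and 21.1% in the same order. Of the 34 genes in the 4 groups, Gjb5 in topical controls varied least (134 ± 7.72 CPM, SD, n = 5) and Dsc2 in systemic controls most (4.73 ± 7.39 CPM, SD, n = 5).

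Systemic cKO 2, the knockout library with high satellite-like counts, was compared with the others for the members that differed in systemic mice. For Cldn4 and Cdh3 it lay above all 5 systemic controls, for Cdsn and Nectin4 above 4 of 5, and for Gjb5 above 3 of 5. Leaving it out, 5 of 33 members were called in the systemic genotype comparison, when 6.26% of all genes were, and 3 in the test of the difference between routes (Cdsn, Gjb5 and Nectin4), when 3.74% of all genes were. Between routes in cKO mice 10 of the 11 members remained called without it, when 8.39% of all genes were. In that fit all cKO libraries of both routes were low in satellite-like counts.

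Of a wider list of 63 junction genes that are no members, 60 were in the table and 45 were tested. Neither genotype comparison nor the difference between both called any of the 45 in edgeR, with 3, 7 and 9 at an unadjusted p under 0.05. Between routes 5 (11.1%) were called in controls, 4 higher and 1 lower in systemic mice, and 8 (17.8%) in cKO, 7 higher and 1 lower. Their median log2 difference was 0.24 in controls and 0.14 in cKO. Cldn23, a claudin gene of differentiated keratinocytes, rose from 2.26 ± 1.20 CPM in topical cKO to 8.38 ± 2.59 CPM in systemic cKO (SD, n = 5), by 1.94 on the log2 scale (SE 0.33, edgeR adjusted p = 5.60e-04). Nectin3, a partner of Nectin1, rose by 2.91 (SE 0.52, edgeR adjusted p = 9.58e-04) from 0.344 ± 0.167 to 2.41 ± 1.45 CPM (SD, n = 5). Cldn5, best known from endothelium, fell by 1.66 (SE 0.38, edgeR adjusted p = 0.00742), from 2.34 ± 0.79 to 0.774 ± 0.257 CPM (SD, n = 5). Amotl2 and Shroom3, which act on junctional actin, were called higher in systemic mice in both genotypes.

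Genes of the cornified envelope and of the basal anchor were counted beside the junction genes. Of 19 tested suprabasal and cornified envelope genes 2 (10.5%) were called in the systemic genotype comparison, Lor for loricrin and Flg2 for filaggrin 2, both higher in cKO, and 0 in the topical one. Between routes 1 was called in controls (5.26%) and 8 in cKO (42.1%), all higher in systemic mice. The part of the differentiation state of the sorted cells in the Cdsn, Ppl, Evpl, Dsc1 and Dsg1a results was not tested. Of 14 basal and hemidesmosome genes 1 (7.14%) was called in the systemic genotype comparison, higher in cKO. Between routes 4 (28.6%) were called in controls, 3 higher and 1 lower in systemic mice, and 0 in cKO. Over all genes the shares were 1.89% in the systemic genotype comparison and, between routes, 18.3% in controls and 9.22% in cKO. Of 8 dissociation response genes 1, Fosb, was called in the systemic genotype comparison, 4 between routes in controls and 3 between routes in cKO, all higher. Their part in the route results of the junction genes was not tested.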

How the data were processed

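The deposited table holds whole-number read counts per gene, which the authors made with STAR and featureCounts on GRCm38 (mm10), per the submitters' processing notes. Versions, annotation release and strand setting are not given in the sources used here. Libraries were made with SmartSeq II from total RNA of sorted keratinocytes, per the labels' protocols. Members were matched by symbol, and all 34 symbols were those of their IDs in GENCODE M21, which gave coordinates and merged exon lengths. The members and gene lists were chosen with earlier results of these data known.

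Genes were kept by edgeR's filter (minimum count 10, minimum total 15), and 12424 were fitted over the 4 groups in 1 model with TMM factors and the quasi-likelihood test (edgeR 4.0.16 in R 4.3.3). The 5 mice per group are separate animals. Depth was 11.6 to 50.1 M counts per library. On simulated counts for the systemic genotype comparison (12378 genes), 175 of 200 genes with a log2 change of 1.5 were recovered with 12 false calls. The simulated counts held no satellite-like split and the same spread in all groups. Smaller changes were not simulated. The recovery thus does not bear on calls under such a split. Full statistics are given for members called in a comparison or, where more than 10 were called, for the 10 with the smallest adjusted p, and any further member is given because it was called in another comparison or forms a pair by role. Dsc2, Nectin4 and the adjusted p values of uncalled members were singled out after their values were seen. Alternatives were DESeq2 1.42.0 (size factors and Wald test), limma 3.58.1 voom with quality weights, other count filters, fits of the compared libraries alone, a replicate block, covariates for sex, mitochondrial share and satellite-like transcripts, and leaving out each library.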

Additional observations from a re-analysis of the deposited data

Results flagged for a closer look

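Each of the 33 tested genes was screened on log2 CPM in each group of 5 mice. A library was flagged if its gap to the nearest other exceeded 0.71 of the range of the group (the 95% critical value of Dixon). The flagged levels are printed in CPM, where gaps differ from those on the log2 scale, and a screen on CPM was not run. Of 132 such sets 10 were flagged, and chance flags about 1 in 20. Among desmosomal genes, Dsc1 stood high in systemic control 1 at 17.0 CPM, Dsc2 in systemic control 6 at 17.9 CPM and Dsc3 in systemic cKO 4 at 3786 CPM. Ppl stood high in topical control 1 at 192 CPM and low in topical cKO 5 at 102.0 CPM. Evpl stood low in topical cKO 5 at 76.0 CPM and in systemic cKO 2 at 138 CPM. Of tight junction genes, Cldn1 stood high in topical control 7 at 359 CPM and Ocln low in topical cKO 7 at 17.9 CPM. Gjb2 stood high in systemic control 1 at 13.3 CPM. Topical cKO 5 and systemic control 1 held 2 flags each and 6 other libraries 1 each.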

How the results depend on the processing

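Cldn4, Cdsn and Cdh3 in systemic mice rest on a comparison that nearly coincides with the satellite-like split of the libraries. Each count of members is followed by the share of all tested genes called at the same setting. Members called by genotype in systemic mice numbered 3 with edgeR (1.89%), 5 with the DESeq2 Wald test (4.41%), 6 with the mitochondrial covariate (10.6%), 1 with the 10 systemic libraries alone (0.294%), and 0 with either satellite covariate, where no gene was called. Between routes in controls they numbered 6 with edgeR (18.3%), 10 with limma voom (28.0%), and 0 with the log2 (0.95%) and the 2-level satellite covariate (0.00805%). Gjb2 then differed by 1.23 with the log2 and 0.83 with the 2-level covariate, and Cdh3 by -0.19 with the 2-level one. Between routes in cKO they numbered 11 with edgeR (9.22%) and 7 with the 10 cKO libraries alone (6.7%). For the difference between genotype effects the count was 0 with edgeR (0.25%), 3 with the Wald test (2.54%), 1 with voom (1.75%) and 3 with the mitochondrial covariate (2.93%). In topical mice it was 0 (0.129%), and 1, Dsc2, with the 10 topical libraries alone (0.194%). Leaving out 1 library gave 0 members in topical mice (0.0796% to 0.152%) and 3 to 5 in systemic mice (0.643% to 6.26%), the 5 being without systemic cKO 2 (6.26%) or systemic control 1 (2.56%). It gave 0 to 3 for the difference (0.127% to 3.74%), with 3 without systemic cKO 2 (3.74%) and 2 without systemic control 1 (1.19%). It gave 3 to 7 between routes in controls (11.7% to 20.1%), with 3 without topical control 3 (13.5%), and 8 to 10 in cKO (5.97% to 9.69%). The cause of these changes was not tested. With the replicate number as a block the members called were 0 in topical mice (0.0724%), 3 in systemic mice (2.32%), 0 for the difference (no gene), 6 between routes in controls (17.6%) and 9 in cKO (7.54%). The deviations of same-numbered libraries from their group means correlated between -0.31 and 0.34. Without a reference from other pairs this does not decide whether equal numbers mark paired mice. The mice were not taken as pairs. Over all genes the systemic genotype count of 235 moved to between 81 and 787 without 1 library, and from 0 to 1320 under the other settings. No result recomputed here changed direction.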
